A study of Mus musculus with 29 samples.

Results

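EC3 is 1 of 9 endothelial subtypes in the authors' cell annotation of mouse brain after stroke. Its members are the cells that the deposited annotation of the brain libraries puts in the endothelial class EC and, within it, in the subtype EC3. They were 950 of 7627 endothelial cells, among 55268 cells of 18 brain libraries. The 12 libraries of young mice held 881 of them and the 6 libraries of aged mice held 69. EC1 was the largest subtype, with 3126 cells, and EC3 came after EC1 and EC2 (1621 cells). The annotation rests on the expression of the same cells, so values of EC3 against other subtypes are given as a description, without a test. The rule that picks the cells uses neither their number nor their group, so the share and the expression between groups were tested over libraries, although EC3 was taken up for description with earlier results of these data known.

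The libraries were made by Drop-seq, in which a droplet joins each cell to a bead that carries its barcode. Stroke was made by blocking the middle cerebral artery for a limited time, and sham mice were operated on without the block. Leukocytes with high CD45, microglia and endothelial cells without CD45 and with high Ly6c were sorted from brain. Papain digestion was carried out with actinomycin D, an inhibitor of RNA polymerase, together with blockers of the P2X7 and NMDA receptors. All mice were C57BL/6J, with no engineered allele named in the labels, and each library pooled 4 to 5 hemispheres. Young mice were males of 8 to 10 weeks, and gave 12 libraries: 4 sham libraries taken on day 2, 4 stroke libraries from day 2 and another 4 from day 14. Aged mice were 17 to 20 months old, with 1 male and 1 female sham library at day 2, 1 male and 2 female stroke libraries at day 2 and 1 female stroke library at day 14. There was no sham library at day 14, so both stroke times were set against the same day 2 sham libraries, and time since surgery and stroke cannot be told apart in that comparison. The labels do not say whether the replicates came from separate operations, so p-values measure the spread between these libraries, which may be technical in part.

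Endothelial cells of the brain line its vessels and form the blood-brain barrier through tight junctions and dedicated transporters. Along the vessel tree they differ by zone, with capillary cells rich in transporters, arterial cells marked by genes such as Gkn3 and Bmx, and venous cells by adhesion molecules and von Willebrand factor. Immediate early genes, among them the AP-1 subunits of the Fos and Jun families, are transcribed within minutes of many stimuli, including growth factors, flow, injury and the handling of tissue, and their transcripts decay quickly.

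Brain libraries held 1143 to 5121 cells, 819438 to 5855047 summed counts and a median of 320.8 to 1363 counts per cell. Each library has its own code in the cell names, so library and preparation cannot be told apart. The young libraries also fell in 2 sets by the median mitochondrial percent of their EC3 cells. It was 0.473 to 1.07 in sham replicate 1, day 2 replicates 1 and 2 and day 14 replicates 1 and 2. In the other young libraries it was 5.14 to 8.45. Both sets held libraries of each group and the labels do not name them. No fit held a term for these sets, and their part in the results was not tested. Notes in 2 aged libraries give the numbers of sorted cells that were mixed, so the share of endothelial cells among all cells was set in part by the sort. Of 950 EC3 barcodes, 2 also occurred in another brain library, and no barcode was repeated within a library. The 10 young libraries with at least 20 EC3 cells, used for expression, were sham replicates 1, 2 and 3, day 2 replicates 1, 3 and 4 and the 4 day 14 replicates. They held 854 EC3 cells, and their EC3 counts summed to 19379 to 173506 per library. The EC3 cells of sham replicate 4 numbered 11 and those of day 2 replicate 2 numbered 16, and these 2 libraries enter the shares only.

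EC3 cells carried the markers of brain endothelium. Cldn5, the main tight junction claudin of this barrier, stood at 4729 ± 1052 CPM in EC3 (CPM, the gene's counts scaled to a fixed total per library, SD, n = 10 young libraries) and at 4274 ± 1113 CPM in the other endothelial cells of the same libraries. After each cell was thinned to 300 counts, 75.6% of 758 EC3 cells and 73.5% of EC1 cells held a Cldn5 count, against 0 of the thinned microglia. Without thinning these shares were 91.3%, 87.7% and 0.963%, at median depths of 640 counts in EC3, 511 in EC1 and 644 in microglia. Expected counts were rounded before thinning, so small fractions became 0, whereas the shares without thinning count any value above 0. The source of the Cldn5 counts in microglia was not tested. All 12 endothelial identity genes reached a mean of 50 CPM over EC3 and the other cells, with a median log2 ratio of EC3 to other endothelial cells of 0.06. None was higher in all 10 libraries and 1, Egfl7, a secreted endothelial factor, was lower in all (-0.15).

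Markers of other cell types were low. The 10 microglial markers summed to 0 to 203 CPM per library in EC3 (median 10.9), with 4 of the 10 at 0 in every library, and to 0 to 205 CPM in other endothelial cells (median 14.96). The 9 pericyte markers summed to a median of 186 CPM in EC3 and 237 CPM in other endothelial cells, with 5 of 9 at 0 in EC3. The medians of the neutrophil, T and NK cell, fibroblast, oligodendrocyte and neuron lists were 0 CPM in EC3. The 8 monocyte and macrophage markers had the highest sum in EC3 among the leukocyte lists, 76.8 to 1005 CPM (median 168), against 110 to 787 CPM in other endothelial cells. Erythrocyte genes differed most by median, with sums of 0 to 50.7 CPM in EC3 (median 20.7) and 0 to 14950 CPM in other endothelial cells (median 3383). Of the 4 such genes at 50 CPM, none was lower in EC3 in all 10 libraries.

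EC3 cells made up a larger share of the endothelial cells at day 14 than at day 2 after stroke or after sham surgery. The 4 day 14 libraries held 25.2% (170 of 674 cells, 95% Wilson interval 22.1 to 28.6), 30.7% (98 of 319, 25.9 to 36.0), 36.3% (109 of 300, 31.1 to 41.9) and 22.1% (70 of 317, 17.9 to 27.0). The day 2 stroke libraries held 9.17% (33 of 360), 3.49% (16 of 458), 5.38% (27 of 502) and 14.8% (173 of 1171). The sham libraries held 12.1% (66 of 546), 10.4% (64 of 617), 13.7% (44 of 321) and 3.73% (11 of 295). Each day 14 library lay above all 8 others. Sham and day 2 libraries overlapped, with replicate 4 the lowest in sham and the highest at day 2. The Wilson intervals cover counting error only.

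The mean share was 28.6% ± 6.28 at day 14, 8.20% ± 4.97 at day 2 and 9.98% ± 4.38 in sham (SD, n = 4 each). Day 14 against day 2 gave a difference of 20.4 percentage points, and day 14 against sham 18.6 points. Each had a two-sided exact permutation p of 0.0286, the smallest that 4 against 4 libraries allow, and an adjusted p of 0.0429 over the 3 pairs of groups. Day 2 and sham differed by -1.77 points (exact permutation p 0.6). A count model on the cells per subtype (edgeR quasi-likelihood, adjusted over the 9 subtypes) gave log2 fold changes for EC3 of 1.78 ± 0.47 (SE) for day 14 against day 2 (adjusted p 0.00978) and 1.51 ± 0.47 against sham (adjusted p 0.0196). In the same model EC5, whose interferon gene Ifit3 was the highest of the subtypes, was also higher at day 14 than in sham, by 1.57 ± 0.42 (adjusted p 0.0151), and EC4, which led in the arterial gene Gkn3, was lower, at -1.15 ± 0.32 (adjusted p 0.0151).

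**Figure D1:**
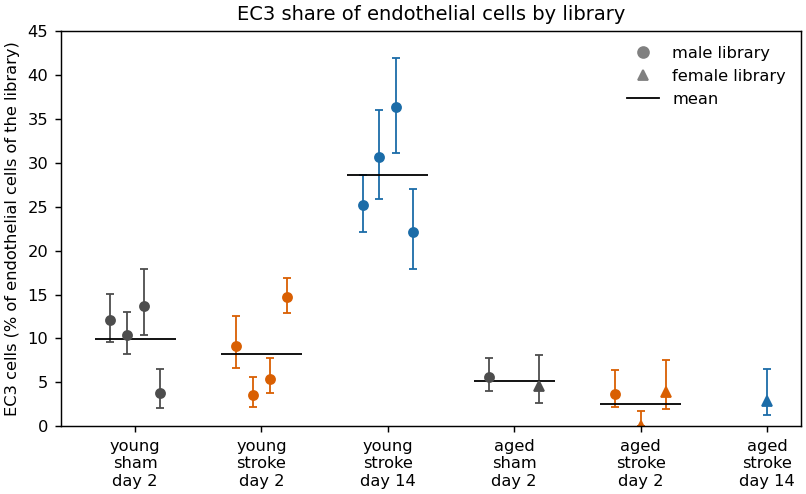
EC3 cells as a percent of the endothelial cells of each brain library, by group; circles are male and triangles female libraries, error bars are 95% Wilson intervals and lines are group means. The 4 young day 14 libraries lie between 22.1% and 36.3%, above all other young libraries, and the 1 aged day 14 library is at 2.84%.

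The share depends on what else is counted as endothelial. EC2 made up 32.7% to 59.2% of endothelial cells at day 2, against 0.339% to 5.50% in sham and 0.316% to 4.75% at day 14. Among endothelial cells other than EC2, the EC3 share was 29.3% ± 6.57 at day 14, 14.2% ± 6.63 at day 2 and 10.3% ± 4.56 in sham, and day 14 still lay apart from both (exact permutation, adjusted p 0.0429 for each). As a share of all cells of the library, EC3 was at 3.71% ± 1.79, 1.51% ± 1.57 and 1.25% ± 0.683, the groups overlapped, and neither comparison was called (exact permutation, adjusted p 0.129). The depth of EC3 cells also moved with the groups. The median counts per EC3 cell in a library were 350.1 to 585 in sham (median 421), 422 to 851 at day 2 (median 533) and 406 to 851 at day 14 (median 715), and the part of depth in the share was not tested beyond the cut that follows. When cells below 800 counts were left out, the share was 40.4% ± 8.34 at day 14 (3 libraries with 20 such endothelial cells), 5.28% ± 3.67 at day 2 (4 libraries) and 14.7% ± 3.25 in sham (2 libraries). The day 14 libraries were again above all others, with exact permutation p-values of 0.0286 and 0.1, the smallest that these numbers allow, and adjusted p-values of 0.0857 and 0.1. With that cut the day 2 libraries also lay below the 2 sham libraries (exact permutation p 0.0667, adjusted p 0.1).

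Aged libraries showed no such level. EC3 made up 5.64% (33 of 585 cells) in the male and 4.62% (11 of 238) in the female sham library. At day 2 after stroke it made up 3.69% (12 of 325) in the male library and 0 of 219 cells in the first female library (Wilson interval 0 to 1.72%). In the second female library it made up 3.92% (8 of 204). The single day 14 library, from females, held 5 of 176 cells (2.84%, Wilson interval 1.22 to 6.48), below each of the 4 young day 14 libraries. With 1 library, of the other sex, age and sex cannot be told apart at day 14 and no test was made. Aged day 2 stroke against aged sham gave an exact permutation p of 0.3, where 3 against 2 libraries cannot go below 0.1.

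Immediate early genes led the genes by which EC3 stood apart from the other endothelial cells. A mean of at least 50 CPM over EC3 and the other endothelial cells was reached by 3776 genes. Of these, 44 were higher in EC3 in each of the 10 young libraries (1.17%) and 32 were lower in each (0.847%). The 12 with the highest mean log2 ratio, taken within each library with 10 CPM added, were Fosb, Fos, Dusp1, Depp1, Atf3, Zfp36, Jun, Nr4a1, Apold1, Junb, Hspa1b and Hspa1a. Their mean ratios ran from 2.47 for Fosb to 1.58 for Hspa1a. With cells of 800 counts or more, which left 5 libraries, all 12 stayed above 0, with a median of 1.31, and Atf3 dropped from 1.73 to 0.45, Fosb to 1.64 and Nr4a1 from 1.71 to 1.06. They encode AP-1 subunits and a related factor (Fosb, Fos, Jun, Junb, Atf3), a phosphatase that turns off MAP kinases (Dusp1), a protein that destabilises AU-rich mRNAs (Zfp36), an orphan nuclear receptor (Nr4a1), an early gene of endothelium (Apold1), a FOXO target (Depp1) and the inducible HSP70 proteins. The pair Hspa1a and Hspa1b is nearly identical, with 3 of 250 bases that differ upstream of their starts, and the split of reads between them is uncertain. These genes are short, with a median gene length of 3.03 kb in RefSeq against 21.99 kb for the genes at 50 CPM or more.

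The 250 bases upstream of the start are shown for 5 of these genes. Fosb, Fos, Dusp1 and Junb were picked after the search as examples that hold the letters TGACG, and Jun as one that does not. Sequences are from RefSeq, build GRCm38.p6, on the strand of the gene, and run 5′ to 3′ up to the base before the start. They lie at chr7:19310046-19310295, minus strand for Fosb, at chr12:85473640-85473889, plus strand for Fos, at chr17:26508473-26508722, minus strand for Dusp1, at chr8:84978749-84978998, minus strand for Junb and at chr4:95052223-95052472, minus strand for Jun. Capitals mark the letters TGACGTCA, the full cAMP response element, and TGACG, its shorter core, on either strand.
Fosb: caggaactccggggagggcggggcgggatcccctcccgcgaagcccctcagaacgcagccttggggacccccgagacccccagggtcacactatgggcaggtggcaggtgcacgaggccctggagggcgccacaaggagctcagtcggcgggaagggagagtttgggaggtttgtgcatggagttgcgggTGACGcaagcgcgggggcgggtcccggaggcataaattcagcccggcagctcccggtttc
Fos: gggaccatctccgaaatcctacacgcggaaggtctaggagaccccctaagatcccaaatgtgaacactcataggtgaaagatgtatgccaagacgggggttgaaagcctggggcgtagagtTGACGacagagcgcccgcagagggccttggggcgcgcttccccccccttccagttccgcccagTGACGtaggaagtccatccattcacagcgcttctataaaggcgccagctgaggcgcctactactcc
Dusp1: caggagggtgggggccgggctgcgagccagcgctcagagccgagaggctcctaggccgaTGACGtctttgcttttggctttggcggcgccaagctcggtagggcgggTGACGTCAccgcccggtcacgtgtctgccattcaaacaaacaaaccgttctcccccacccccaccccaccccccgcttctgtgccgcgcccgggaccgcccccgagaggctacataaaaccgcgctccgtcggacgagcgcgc
Junb: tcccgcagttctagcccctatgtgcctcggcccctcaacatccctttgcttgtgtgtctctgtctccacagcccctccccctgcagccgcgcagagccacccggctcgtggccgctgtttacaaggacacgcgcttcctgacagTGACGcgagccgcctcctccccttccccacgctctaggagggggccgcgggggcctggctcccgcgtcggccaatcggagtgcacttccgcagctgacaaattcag
Jun: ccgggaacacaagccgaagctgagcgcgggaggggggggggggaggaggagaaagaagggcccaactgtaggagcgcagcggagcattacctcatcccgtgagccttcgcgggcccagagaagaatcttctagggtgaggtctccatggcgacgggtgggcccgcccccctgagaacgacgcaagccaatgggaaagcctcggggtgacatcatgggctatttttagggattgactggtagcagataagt

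TGACG was present in the windows of 7 of the 12 genes (Fosb, Fos, Dusp1, Atf3, Nr4a1, Apold1 and Junb) and in 17.8% of the 32817 windows of the same length in the RefSeq table. Those windows were not matched to the 12 for expression or base content, so the percents are no measure of enrichment. TGACGTCA, which contains it on both strands, was present in the window of Dusp1 and in 1.55% of windows. The CArG box, the serum response element core, was in the window of Zfp36 alone among the 12 and in 1.47% of windows. Bases further upstream than these 250 were not searched for any motif. TGANTCA, the AP-1 element, was in none of the 12 windows and in 6.75% of all. A strict form of the heat shock element was in none of the 12, Hspa1a and Hspa1b included, and in 0.47% of all, and looser forms were not searched. All motifs were searched on both strands, and a match is a description of the letters, not a site.

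Fos reached 1391, 1883 and 3959 CPM in EC3 of the 3 sham libraries, 2353, 1327 and 2336 CPM at day 2, and 1988, 2668, 3221 and 1762 CPM at day 14. The other endothelial cells of the same libraries held 219 to 1109 CPM. No EC3 value overlapped that range, and within EC3 the groups overlapped. Fosb reached 554, 563 and 679 CPM in sham EC3, 535, 73.1 and 184 CPM at day 2 and 487, 928, 467 and 564 CPM at day 14, against 6.93 to 194 CPM in other endothelial cells. Day 2 replicates 3 and 4 were low for Fosb in EC3, and the same libraries were the lowest in the other cells. Dusp1 lay between 941 and 2412 CPM in EC3 and between 155 and 864 CPM in other cells.

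Of the 12 genes of an early-response list, all reached 50 CPM, 10 were higher in EC3 in all 10 libraries and none was lower in all, with a median log2 ratio of 1.67 beside -0.10 over all genes. The 2 others were Egr1, a zinc finger early factor, at 0 CPM in both cell sets of day 14 replicate 4 and higher in the other 9 libraries, and Ier3, higher in 8. Jun was at 3409 ± 1247 CPM in EC3 and 1206 ± 748 CPM in other endothelial cells. Junb was at 1210 ± 395 and 396 ± 173 CPM. Btg2, an antiproliferative early gene, was at 717 ± 261 and 241 ± 86.5 CPM (SD, n = 10 for each). Shear-responsive factors went the same way: Klf2 was at 2526 ± 749 against 1267 ± 548 CPM and Klf4 at 1068 ± 573 against 483 ± 270 CPM, both higher in EC3 in 10 of 10 libraries. Of the 6 genes of the flow list, Adamts1, a secreted protease, was the third with this pattern (log2 ratio 1.05 ± 0.49), while Nos3, the endothelial nitric oxide synthase, had a mean ratio of -0.40 and was higher in 3.

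Few other heat shock genes were high in EC3. Among 10 genes of the list at 50 CPM, Hspa1a, Hspa1b and Hspb1, a small heat shock protein, were higher in EC3 in all libraries, none was lower in all, and the median log2 ratio was 0.02. Hspa1a ranged among libraries from 419.5 to 3081 CPM in EC3. In the glucocorticoid and stress list, Sgk1, a kinase induced by glucocorticoids and stress (log2 ratio 0.97 ± 0.55), and Cdkn1a, the p21 inhibitor of the cell cycle (0.51 ± 0.26), were 2 of 7 measured genes higher in every library, and the median ratio was 0.51.

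**Figure D2:**
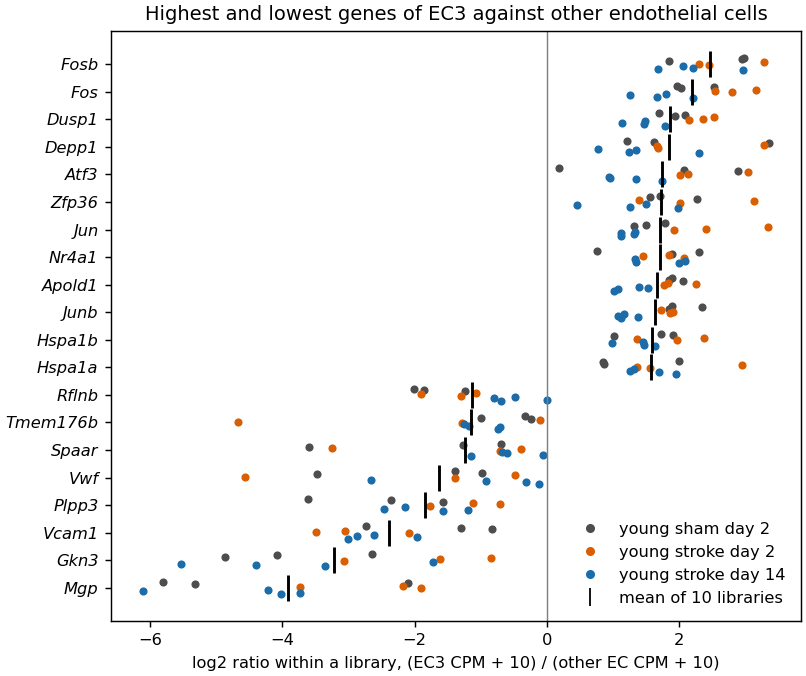
Log2 ratio of EC3 to the other endothelial cells within each young library, with 10 CPM added to both, for the 12 highest and 8 lowest genes; points are libraries coloured by group and bars are means of 10 libraries. The genes were chosen for one sign in all 10 libraries, Fosb has the highest mean (2.47) and Mgp the lowest (-3.91).

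Genes of arteries and veins stood at the other end. The 8 lowest were Mgp (matrix Gla protein, log2 ratio -3.91 ± 1.52), Gkn3 (-3.21 ± 1.53), Vcam1 (an adhesion molecule for leukocytes, -2.39 ± 0.84), Plpp3 (a lipid phosphatase, -1.85), Vwf (von Willebrand factor, -1.63), Spaar (-1.24), Tmem176b (-1.15) and Rflnb (-1.14). Mgp was at 0 CPM in 3 EC3 libraries and at most at 501 CPM, while other endothelial cells held 153 to 1953 CPM. Gkn3 was at 0 CPM in 4 EC3 libraries and at most at 91.5 CPM, in day 14 replicate 1. The values of Rflnb came nearest to equality, with 546 CPM in EC3 and 548 CPM in other cells in day 14 replicate 3. The median log2 ratio was -1.15 over 6 arterial genes, with 2 lower in all libraries, and -1.26 over 10 venous genes, with 2 lower in all.

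Several of these low genes were high in subtypes other than EC1. Pooled over young libraries, Gkn3 was at 1952 CPM and Mgp at 6643 CPM in EC4, Vcam1 at 1085 CPM and Ackr1, the venular chemokine receptor, at 3294 CPM in EC6, and Plvap, the diaphragm protein of fenestrated vessels, at 4842 CPM in EC8. EC3 had 38.5 CPM of Gkn3, 143 CPM of Mgp and 30.6 CPM of Vcam1, and Ackr1 and Plvap were at 0. EC1 had 6.45 CPM of Gkn3, 100.8 CPM of Mgp and 19.3 CPM of Vcam1. Set against EC1 alone, the 12 highest genes kept their sign with a median log2 ratio of 2.25, whereas 5 of the 8 lowest kept it and Gkn3 (0.91), Mgp (0.83) and Vcam1 (0.30) turned positive.

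Of the 12 capillary genes none was higher or lower than in other endothelial cells in all libraries, with a median log2 ratio of 0.30. Against EC1 alone most were nearer to 0 or below it. Cxcl12, a chemokine, Spock2, a proteoglycan, Slco1a4, a transporter of organic anions, and Slc2a1, the glucose transporter, had ratios within 0.031 of 0. Rgcc, a cell cycle regulator, was at 0.26. The other 7 lay from -0.39 for Car4, a carbonic anhydrase at the lumen, to -0.30 for Slc16a4, with Mfsd2a, the lipid transporter that restrains transcytosis, at -0.33. Of the 14 barrier transport genes, Slc6a6, the taurine transporter, was higher in all 10 libraries (0.43 ± 0.31), with a smallest ratio of 0.01. No junction or Wnt signalling gene was higher or lower in every library (11 and 12 measured).

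**Figure D3:**
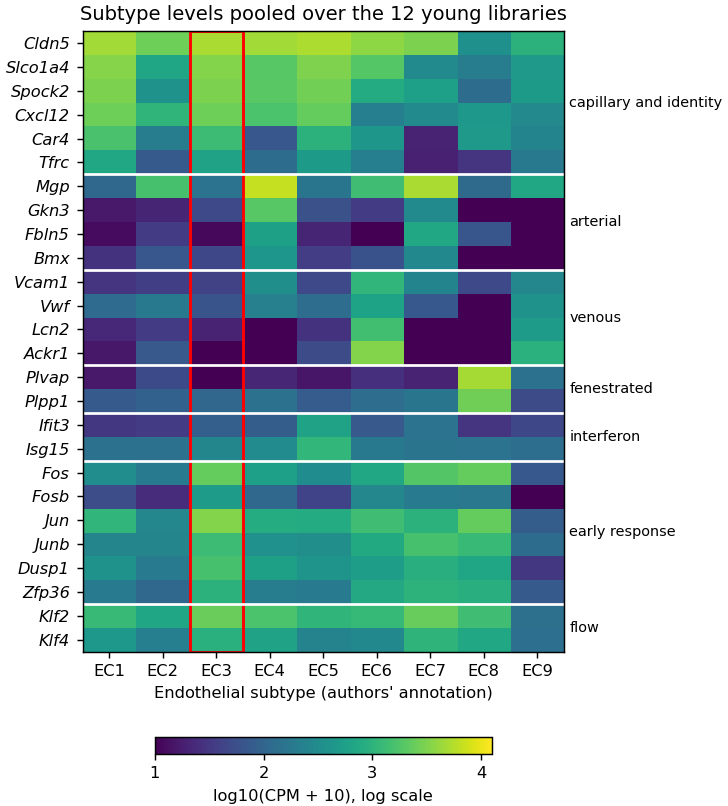
Level of marker genes in the 9 endothelial subtypes, from counts pooled over the 12 young libraries, as log10 of CPM plus 10; EC3 is outlined. EC3 pairs high Cldn5 (5058 CPM) and capillary genes with high Fos (2322 CPM), EC8 has a like level of Fos (2299 CPM) with high Plvap (4842 CPM), and EC7 has Fos at 1833 CPM with Mgp at 5027 CPM.

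High early genes were not found in EC3 alone. Pooled Fos was 2322 CPM in EC3, 2299 CPM in EC8, 1833 CPM in EC7, 1361 CPM in microglia and 61.7 to 696 CPM in the other 6 subtypes. Fosb was 498 CPM in EC3, with 264 CPM in EC6 as the next subtype and 241 CPM in microglia. Per cell, the 12 early-response genes took a median of 1.36% of the counts of an EC3 cell (quartiles 0.860% and 1.99%) and 0.297% of those of an EC1 cell. Of 881 young EC3 cells, 66.1% lay above the 90th percentile of EC1 cells (1.03%), as did 30.3% of EC7, 34.2% of EC8 and 32.9% of microglia. No count of any of these genes was seen in 0.57% of EC3 cells and 29.6% of EC1 cells, at median depths of 568 and 384 counts. At 300 counts per cell, 42.9% of EC3 cells held a Fos count, against 43.4% of EC8, 31.0% of EC7, 25.4% of microglia and 8.73% of EC1 cells.

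The sum of these genes in EC3 overlapped between the groups. For day 2 against sham, 5 of the 12 members had a log2 fold change above 0 in EC3 and 7 below. None was called, and 2 had an unadjusted p under 0.05 (edgeR), beside 63 of the 1008 genes tested. The annotation drew on expression of the same cells, and its part in these levels was not tested. The 12 genes summed to 11780 to 17900 CPM in sham EC3 (3 libraries), 10770 to 13770 CPM at day 2 (3 libraries) and 11360 to 19810 CPM at day 14 (4 libraries). In the other endothelial cells they summed to 3624 to 5979, 2071 to 3295 and 4635 to 8364 CPM, with day 2 below both other groups. In microglia they summed to 4089 to 18870, 1363 to 5967 and 2756 to 21740 CPM, and the spread among libraries of 1 group was wide. The other endothelial cells of the 3 day 2 libraries used for expression were 38.4% to 52.0% EC2, whose cells had a median early-response share of 0.134% of counts. In EC1 alone the sums were 3012 to 6103 CPM in sham, 1489 to 3442 CPM at day 2 and 3657 to 6266 CPM at day 14, and sham and day 2 overlapped. The EC3 share of endothelial cells averaged 9.98% in sham, 8.20% at day 2 and 28.6% at day 14. Day 14 replicates 1 to 4 had sums of 4736, 8069, 8364 and 4635 CPM in the other endothelial cells. Their EC3 shares, 25.2%, 30.7%, 36.3% and 22.1%, had the same order. In sham and at day 2 the library with the highest sum also had the highest share, and the order of the other libraries differed. The part of early-gene levels in the share of cells annotated as EC3 was not tested.

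**Figure D4:**
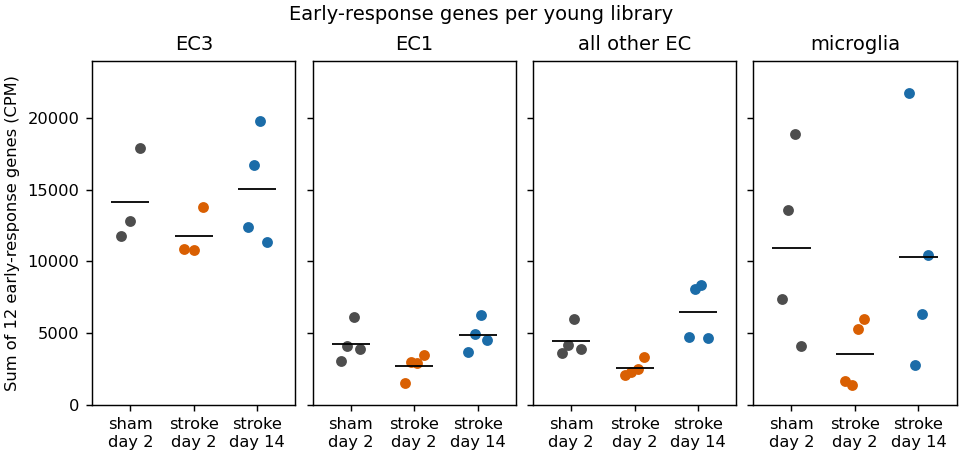
Sum of the 12 early-response genes in CPM per young library, in EC3, EC1, all other endothelial cells and microglia; points are libraries, lines are group means. EC3 sums lie at 10770 to 19810 CPM in all groups, above the EC1 sums (1489 to 6266 CPM), and microglia range from 1363 to 21740 CPM.

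In the aged male sham library, the 1 aged library with at least 20 EC3 cells (33), 11 of the 12 highest genes were again above the other endothelial cells and 8 of 8 lowest were below. Fos was at 6296 CPM in EC3 and 1148 CPM in the other cells. Hspa1b was the exception, at 0 CPM in both. The early-response sum there was 22690 CPM, above each of the young EC3 libraries.

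Within EC3, no gene passed the test between the groups. The fit (edgeR quasi-likelihood test with Benjamini-Hochberg adjustment) covered 1008 genes and called 0 for day 14 against day 2 (0.0%), 0 for day 14 against sham (0.0%) and 0 for day 2 against sham (0.0%). At an unadjusted p under 0.05 there were 77, 50 and 63 genes, and the smallest adjusted p-values were 0.265, 0.532 and 0.67. DESeq2 called 1, 0 and 0, and edgeR with the replicate number as a block called 1, 0 and 0. In data simulated from these EC3 libraries, the day 14 against day 2 test recovered 98.4% of 184 genes changed 4-fold among 910 tested. All of these genes were changed at once and their spread followed the fitted trend, so the recovery does not carry over to single genes. In the real fit Cebpd had a log2 fold change of -2.28 ± 0.64 for that comparison and was not called (edgeR adjusted p 0.435). Changes of that size or smaller may therefore have been missed. EC1 in the same libraries had 23 of 2951 genes called for day 14 against day 2 (0.779%), 0 against sham (0.0%, 130 at an unadjusted p under 0.05) and 2 for day 2 against sham (0.0678%). DESeq2 was not run on EC1.

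The genes with the lowest p for day 14 against day 2 were Tmem252, Grrp1 and Edn1, each at an adjusted p of 0.265 (edgeR). With no gene called, the genes of the lowest p are named after their values were seen. CPM values beside the edgeR fits are of the rounded counts that entered them. Tmem252, a membrane protein, was at 1266, 1667 and 1595 CPM at day 2 and 287, 737, 378 and 220 CPM at day 14, with sham at 1034, 1605 and 711 CPM. Day 14 lay below day 2 without overlap and overlapped sham (log2 fold change -1.82 ± 0.39 against day 2). DESeq2 called it (-1.83, adjusted p 0.0288), as did edgeR with the replicate block (-2.26 ± 0.34, adjusted p 0.0321) and edgeR without day 14 replicate 2 (-2.30, adjusted p 0.0152). Edn1, the vasoconstrictor endothelin-1, was at 1321, 1126 and 467 CPM at day 2, 315, 388, 262 and 346 CPM at day 14 and 617, 787 and 711 CPM in sham. It was lower at day 14 than in both other groups without overlap (-1.49 ± 0.35 against day 2, -1.08 ± 0.36 against sham), and without day 2 replicate 4 the former was called (edgeR adjusted p 0.0254). Grrp1 was at 441 to 496 CPM at day 2 and 94.2 to 212 CPM at day 14.

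Of the class I antigen presentation genes, 4 of 9 had enough counts to be tested, and their log2 fold changes for day 14 against sham were all above 0, with a median of 0.92 beside -0.01 over all genes tested. None was called (edgeR adjusted p 0.532 to 0.999). H2-D1, a class I heavy chain, was at 1233, 999.5 and 813 CPM in sham and 1800, 2367, 1765 and 2073 CPM at day 14 (0.99 ± 0.25). B2m, the light chain, was at 2168, 1393 and 1574 CPM in sham and 3880, 3014, 3044 and 2230 CPM at day 14 (0.85 ± 0.26). H2-K1 was at 557, 697 and 203 CPM in sham and 1106, 1229, 873 and 1005 CPM at day 14 (1.09 ± 0.38). For H2-T23, the other gene tested, the change was 0.24 ± 0.50 and the groups overlapped. In the other endothelial cells the median over the 7 tested genes of the list was 0.83, with 0 called for the same comparison. From day 2 to day 14, 3 of the 7 were called as rising there, beside 134 called as rising and 151 as falling among the 3229 genes of the same set.

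Other genes with low p against sham at day 14 were Gbp7, an interferon-induced GTPase (1.75 ± 0.41), Apold1 (-1.15 ± 0.30) and Cdkn1a (-1.29 ± 0.35), each at an adjusted p of 0.532 (edgeR). Apold1, among the highest genes of EC3, was at 2089, 3968 and 3047 CPM in sham and 1502, 1630, 1057 and 1162 CPM at day 14. Cdkn1a was at 2188, 3029 and 1473 CPM in sham and 648, 1229, 650 and 1099 CPM at day 14. Both were lower at day 14 than in sham without overlap. For day 2 against sham, Prdx1, a peroxiredoxin, was at 418, 424 and 305 CPM in sham and 798, 991 and 814 CPM at day 2 (1.12 ± 0.31, adjusted p 0.67). Jund was at 975, 1060 and 1066 CPM in sham and 716, 315 and 336 CPM at day 2 (-1.20 ± 0.37, adjusted p 0.67). Of the 12 early-response genes, all tested, 9 had a log2 fold change above 0 and 3 below for day 14 against sham, with a median of 0.14. For day 14 against day 2, 11 were above 0, with a median of 0.26, and none was called.

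Between stroke at day 2 and sham, 7 of the capillary and barrier genes had a higher change in EC3 than in the other endothelial cells taken as 1 group, and none of these calls was kept when EC2 was left out of that group. The difference between the responses was tested in 1 model with the library as a term (edgeR interaction test, 3229 genes). It was called for 90 genes in the day 14 against day 2 comparison (2.79%), 50 with the higher and 40 with the lower change in EC3, for 52 in day 2 against sham (1.61%), 34 higher and 18 lower, and for 0 in day 14 against sham (0.0%, with 169 at an unadjusted p under 0.05; DESeq2 was not run on the difference). Cells were put in EC3 or EC2 on the same expression, so a gene that marks a subtype can differ through the annotation, and its part in these calls was not tested. Without TMM scaling the first count was 111, with 39 higher and 72 lower. The split by direction also moved when single libraries were left out. Without day 14 replicate 1 it was 26 higher and 30 lower for the first comparison and 22 higher and 23 lower for day 2 against sham. Without sham replicate 1 the latter was 26 higher and 4 lower. The other endothelial cells themselves had 327 of 5830 genes called for day 14 against day 2 (5.61%), 0 against sham at day 14 (0.0%, 293 at an unadjusted p under 0.05) and 283 for day 2 against sham (4.85%).

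The counts depended on EC2. This subtype made up 38.4% to 52.0% of the other endothelial cells of the 3 day 2 libraries, against 1.81% to 6.25% in sham and 0.405% to 6.35% at day 14. Without EC2 in the comparator, 3 genes were called for day 14 against day 2 and 1 for day 2 against sham. The 3 were Fos (-0.93 ± 0.21, adjusted p 0.0139), Mgp (-2.04 ± 0.41, adjusted p 0.00222) and Rps2 (1.14 ± 0.23, adjusted p 0.00222), and the 1 was Rps2 (-1.58 ± 0.28, adjusted p 0.00018). Against EC1 alone, the calls were Msn, which links actin to the membrane (1.5 ± 0.35, adjusted p 0.0182), and Rps2, a ribosomal protein (1.27 ± 0.27, adjusted p 0.0062), of 2487 genes for day 14 against day 2 (0.0804%). For day 2 against sham it was Rps2 (-1.61 ± 0.31, adjusted p 0.000557, 0.0402%). These genes are named although they were chosen after their values were seen.

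Of the 12 capillary genes, 4 differed in response between EC3 and the other endothelial cells for day 2 against sham, and of the 14 barrier genes 5, with each of these changes higher in EC3, beside 34 higher and 18 lower of the 3229 genes tested (1.61% called). Without EC2 in the comparator no gene of either list was called, and Rps2 was the 1 call. Spock2 fell in the other cells by 1.65 on the log2 scale (SE 0.32, edgeR adjusted p 0.0135), its change in EC3 was -0.25 ± 0.28 (adjusted p 0.878), and the difference was 1.43 ± 0.20 (adjusted p 1.48e-08). Its EC3 level was 3382, 2938 and 3301 CPM in sham, 3166, 3063 and 2008 CPM at day 2 and 3324, 2380, 3723 and 3361 CPM at day 14, and the groups overlapped. Abcb1a, the efflux pump P-glycoprotein, fell in the other cells by 1.72 (adjusted p 0.012), its change in EC3 was -0.46 ± 0.28, and the difference was 1.24 ± 0.21 (adjusted p 5.29e-06). Its EC3 level was 2129, 2695 and 2641 CPM in sham and 2120, 1847 and 1552 CPM at day 2, all lower than in sham, with 1619 to 2567 CPM at day 14. Against EC1 alone the difference was 0.61 for Spock2 (adjusted p 0.551) and 0.71 for Abcb1a (adjusted p 0.51), and neither was called.

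Of the called genes Slco1a4 and Tfrc are in both lists, so 7 genes were called in all. The other called members were Slco1a4, a transporter of organic anions (1.15 ± 0.19), Slco1c1, a thyroid hormone transporter (0.93 ± 0.23), Tfrc, the transferrin receptor (1.6 ± 0.35), Car4 (1.42 ± 0.25) and Slc22a8, an organic anion transporter (2.00 ± 0.48). From day 2 to day 14 the differences had the opposite sign: 4 of 12 capillary and 4 of 14 barrier genes had a lower change in EC3, beside 40 of 3229 genes (2.79% called in both directions), among them Spock2 (-1.20 ± 0.18), Abcb1a (-1.08 ± 0.19), Slco1a4 (-1.01 ± 0.17) and Car4 (-1.09 ± 0.21). The 2 comparisons share the day 2 libraries. Slc2a1 gave differences of 0.46 ± 0.23 and -0.10 ± 0.20, and neither was called (adjusted p 0.409 and 0.906). Mfsd2a was not called either (adjusted p 0.436 and 0.0795).

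**Figure D5:**
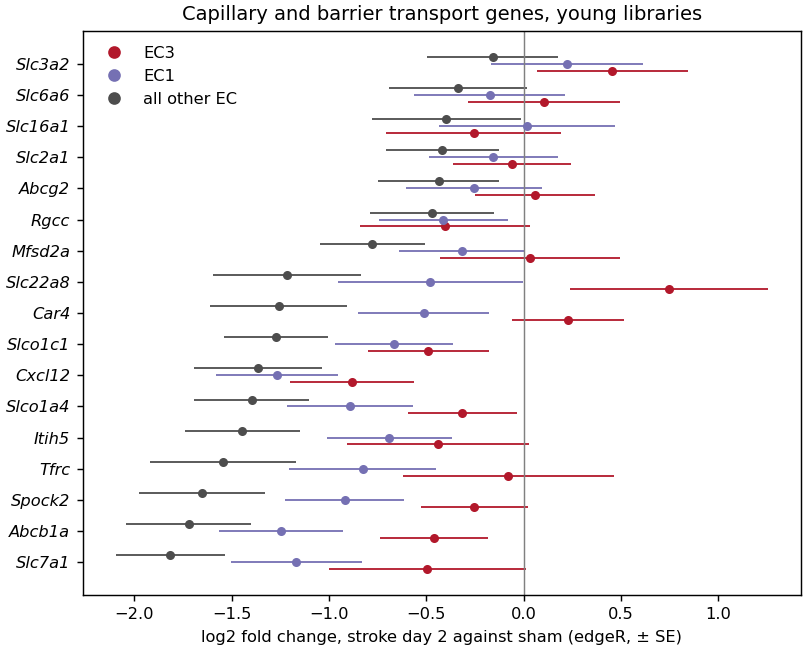
Log2 fold change of 17 capillary and barrier transport genes for stroke at day 2 against sham in EC3, EC1 and all other endothelial cells; points are edgeR estimates and bars are ± 1 SE. The change is below 0 for 17 of 17 genes in the other endothelial cells, 15 in EC1 and 11 in EC3.

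For 5 of the 12 early-response genes the change from day 2 to day 14 was lower in EC3 than in the other endothelial cells by the same model, beside 40 lower of 3229 genes (2.79% called in both directions), with 0 of 12 called against EC1 alone and 1, Fos, without EC2 in the comparator. These genes mark EC3 itself, so the values are a description, and the part of the annotation in them was not tested. The log2 difference, EC3 minus the others, was -1.67 ± 0.42 for Egr1, -1.16 ± 0.19 for Jun, -1.15 ± 0.20 for Fos, -0.89 ± 0.26 for Zfp36 and -0.78 ± 0.21 for Dusp1. In the other cells, EC2 among them, Jun rose by 1.88 (edgeR adjusted p 0.0216), and its change in EC3 was 0.73 ± 0.34 (adjusted p 0.65). Jun in EC3 was at 2753, 2253 and 2322 CPM at day 2 and 2619, 4695, 4819 and 3550 CPM at day 14, with an overlap of 1 day 14 library. Sparc, a matrix protein of growing vessels, had a difference of 0.83 ± 0.17 (adjusted p 0.000274), and Vim, the intermediate filament vimentin, one of 0.67 ± 0.20 (adjusted p 0.0481; edgeR interaction test). Both fell from day 2 to day 14 in the other cells, by 1.19 and 1.33, and neither difference was called without EC2.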

How the data were processed

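Brain leukocytes, microglia and endothelial cells of 18 libraries were profiled by Drop-seq. Per the submitters' processing notes the build was mm10 and Seurat was used; the aligner and the step that made the counts fractional are not given in the sources used here. The deposited tables hold expected counts per gene and cell, of which 0.0388% to 4.47% of non-zero values were whole. The deposited cell annotation gives total counts, the percent of mitochondrial counts, and the cell types and subtypes used here as the authors named them. The members and gene lists were chosen with earlier results of these data known.

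Expected counts were summed per library and subtype, with at least 20 cells of the subtype, and rounded for edgeR 4.0.16 (quasi-likelihood, TMM, filterByExpr, R 4.3.3). The EC3 response was set against that of other endothelial cells by an interaction with the library as a term. Same-numbered libraries of day 2 and day 14 correlated in their deviations from the group means at 0.13, 0.363 and 0.541. Libraries of different numbers in these groups lay at -0.541 to 0.407, the highest being day 2 replicate 1 with day 14 replicate 2. The 5 same-numbered pairs with sham lay at -0.242 to 0.004. These values do not settle whether the numbers pair the libraries. The main fits held no replicate term, and the replicate block is an alternative. Shares were compared by exact permutation tests over all regroupings of the libraries, and the Wilson intervals were taken with scipy 1.17.1. The 12 highest and 8 lowest genes are those with the largest mean log2 ratio and one sign in all 10 libraries. They had 50 CPM or more in the higher of EC3 and the other endothelial cells. For a comparison, the rule named 6 called genes from each end of the ranked log2 changes, at 50 CPM or more and without overlap of libraries, and left out predicted, mitochondrial, ribosomal protein, haemoglobin and antigen receptor genes; list members were named with their list. The script for the fits was tested on simulated data. Alternatives were DESeq2 1.42.0, no filter, no TMM, the replicate block, cells of at least 800 counts, a pseudocount of 1 CPM in place of 10, leaving out each library and other comparators. Scrublet marked 20 of 55268 cells (0.0362%) at its automatic threshold, which is too few to be used, so no doublets were removed. Leaving out the 5% of cells with the highest score was added after seeing the data, as were EC1 alone and the comparators without EC2.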

Additional observations from a re-analysis of the deposited data

Results flagged for a closer look

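The difference in response between EC3 and the other endothelial cells was called for 90 genes from day 2 to day 14 and for 52 genes between day 2 and sham, by a test of the difference itself (edgeR interaction test). All values that follow are differences on the log2 scale, EC3 minus the other endothelial cells, of young libraries, and CPM values are of the counts before rounding. Many of these genes had too few EC3 counts to be tested within EC3 alone, and none of the genes named here was called against EC1 alone in the same comparison, where Atg3 and Snhg1 were not tested. The genes named are those furthest from 0 among the called genes that passed the naming rule (53 and 39 genes), which asks for 50 CPM in EC3 and for within-library ratios of EC3 to the other cells that do not overlap between the groups. Others, such as Mgp, Egr1 and Tfrc, had differences as large.

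From day 2 to day 14 those above 0 were Atg3, an autophagy enzyme (2.54), Nme1, a nucleoside diphosphate kinase (2.11), Rex1bd (2.03), Prdx6, a peroxiredoxin (2.00), Snrpf, a spliceosome protein (1.95), and Pdia6, a protein disulfide isomerase (1.56). Those below 0 were of Prkx, a kinase (-1.97), Lrrn3 (-1.82), Cdkn1c, a cell cycle inhibitor (-1.55), Rasgrp3, a Ras activator (-1.43), Plcb1, a phospholipase (-1.24), and Timp3, an inhibitor of metalloproteases (-1.22). All 6 genes above 0, and Prkx, had too few EC3 counts to be tested within EC3 alone. In EC3 at day 2, Nme1 was at 0 CPM in replicate 3 and Snrpf at 0 CPM in replicate 1.

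Between day 2 and sham they were Upf3b, a factor of nonsense-mediated decay (3.55), Cdkn1c (2.29), Gbp7 (2.04), Ankrd37 (2.03), Slc22a8 (2.00) and Plcb1 (1.5) above 0. Below 0 they were Snhg1, a host of small nucleolar RNAs (-3.35), Snrpd1 (-2.83), Nme1 (-2.62), Manf, a factor of the endoplasmic reticulum (-2.06), Msn (-1.37) and Tmem252 (-1.18). The differences furthest from 0 rest on few counts in 1 group and reached 50 CPM through the other. Upf3b (SE 0.82) was at 37.5, 0 and 51.0 CPM in sham EC3, 3 counts in all, and at 405, 131 and 115 CPM at day 2. Snhg1 (SE 0.98) was at 92.5, 103 and 44.8 CPM in sham and 27.3, 0 and 21.6 CPM at day 2, 3 counts in all. Atg3 (SE 0.73) was at 18.5, 44.5 and 19.3 CPM at day 2, 4 counts in all, and at 139, 114, 94.2 and 31.3 CPM at day 14. Ankrd37, Snrpd1, Nme1 and Manf, like Upf3b and Snhg1, had too few EC3 counts to be tested within EC3 alone. Cdkn1c, Plcb1 and Nme1 stand in both comparisons, which share the day 2 libraries.

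Gkn3 in EC3 was at 91.5 CPM in young day 14 replicate 1, far from the other 3 day 14 libraries (0 to 9.76 CPM). It was the 1 value so marked among 25 groups tested, most of them named genes in the same day 14 libraries. The mark's rate of about 1 group in 20 holds for normally distributed values and need not hold for a gene this near 0. Groups of 3 libraries were not tested.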

How the results depend on the processing

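The mean EC3 share at day 14 stayed above the means of both other groups in all alternatives. As a share of all cells, where the libraries overlapped, the differences were 2.20 points against day 2 and 2.47 against sham (exact permutation, adjusted p 0.129), and with cells of at least 800 counts 35.1 (adjusted p 0.0857) and 25.6 (adjusted p 0.1), with neither called. Day 2 against sham reversed to 0.262 points of all cells and to 3.87 among endothelial cells other than EC2. Leaving out each library gave 17.8 to 22.6, 16.0 to 20.8 and -3.96 to -0.203 points for the 3 pairs of groups.

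Within EC3, day 14 against day 2 gave 1 gene with DESeq2 (Tmem252), 5 without the filter on low counts (Cebpd, Gm19244, Litaf, Mgp and Tmem252) and 0 to 1 without single libraries. With the replicate block 1 gene was called for day 14 against day 2 (Tmem252) and none in the other comparisons. With it the EC3 share in the edgeR count model had log2 fold changes of 1.80 (adjusted p 0.0252) and 1.52 (adjusted p 0.0478). Whether the numbers pair the libraries is not settled.

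The difference in response was called for 49 and 18 genes without the filter (day 14 against day 2, and day 2 against sham), 2 and 1 against EC1 alone, and 3 and 1 without EC2. Leaving out each library gave 55 to 102 and 19 to 62. The first count was 55 without day 2 replicate 1, 59 without day 2 replicate 4 and 56 without day 14 replicate 1. The second was 30 without sham replicate 1 or 3, 19 without day 2 replicate 1 and 29 without day 2 replicate 4. The median ratio of the 12 highest genes was 2.25 against EC1 and 1.31 with cells of at least 800 counts (Apold1 1.04, Atf3 0.45, Fos 1.56, Fosb 1.64, Junb 1.07 and Nr4a1 1.06 moved by over 1 SD), and that of the 8 lowest -2.82 with 1 CPM added and -0.36 against EC1, where Gkn3 (0.91), Mgp (0.83) and Vcam1 (0.30) reversed. The cause was not tested beyond these settings. The planned removal of Scrublet doublets was not run, since the threshold failed. EC3 sums of 19379 to 173506 counts per library left 1008 genes for testing.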
